A study of Rattus norvegicus with 30 samples.

Results

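The 83 measured genes named here encode subunits of the mitochondrial respiratory chain and of the ATP synthase, with a few proteins that help to build or regulate them. They were taken as the probe sets that carry 1 platform symbol beginning with Ndufa, Ndufb, Ndufc, Ndufs, Ndufv, Uqcr, Cox4i, Cox5, Cox6, Cox7, Cox8 or Atp5, or that is Sdha, Sdhb, Sdhc, Sdhd, Cyc1 or Cycs. This gave 97 of the 31042 probe sets on the array that are no controls, for 87 genes. Of these, 91 probe sets for 83 genes were bright enough to be tested, among 10604 tested genes in all. The 83 tested genes were 36 of complex I, 4 of complex II, 8 of complex III, 12 of complex IV, 15 of the ATP synthase and 8 associated proteins that are no stable subunits. Genes were assigned by symbol in all counts and medians below. Complex I thus includes Ndufa4, now known as a subunit of complex IV, and its relative Ndufa4l2, and complex IV includes the pseudogene symbol Cox6c-ps1. The associated proteins were the complex I assembly factors Ndufaf1, Ndufaf3, Ndufaf4, Ndufaf5, Ndufaf7 and Ndufaf8, the supercomplex factor Cox7a2l and the ATP synthase inhibitor Atp5if1. The genes Cox6a2, Cox6b2, Cox7b2 and Cox8b fell below the limit and were not tested. A further 9 probe sets with several symbols were left out, so cytochrome c (Cycs), Cox7a2, Uqcrb, Ndufs5 and Ndufa10 are not described.

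The cells were primary hepatocytes of male Sprague Dawley rats, bought frozen, thawed onto collagen-coated plates and overlaid with Matrigel. On day 3 of culture they received diisononyl phthalate (DINP), a plasticiser, at 25 or 100 mM, or 1% DMSO alone as the vehicle, and RNA was taken 24 or 48 h later. The unit mM stands as the labels write it and was not checked against another source. The 30 Affymetrix arrays make 6 groups of 5: DINP 25 mM and DINP 100 mM and the vehicle at 24 h, and the same at 48 h. The labels describe the 5 wells of a group as separate cultures but name no donor animals, so a p-value here reflects well-to-well spread, which may be technical.

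The respiratory chain passes electrons from NADH (at complex I) and from succinate (at complex II) through ubiquinone, complex III, cytochrome c and complex IV to oxygen, and complexes I, III and IV pump protons as they do so. The ATP synthase lets the protons flow back and makes ATP. Most subunits are encoded in the nucleus and a few core ones in mitochondrial DNA, and in hepatocytes the chain also takes up the electrons released by fatty acid oxidation. Phthalates of this kind are known activators of PPAR alpha in rat liver, the nuclear receptor that switches on fatty acid oxidation genes.

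With the arrays scaled as deposited, transcripts of subunits in all 5 complexes were higher in DINP cultures than in vehicle cultures, by small amounts: centred instead on the poly-A spike controls of each array, the median of the members was close to 0 or below it in 3 of the 4 comparisons, as given further on. At 24 h, 39 of the 83 genes rose at 25 mM (all tested genes, 7.87%) and 0 fell (all tested genes, 7.84%). At 100 mM and 24 h, 43 rose (all tested genes, 7.54%) and 0 fell (7.02%). At 48 h, 55 rose at 25 mM (9.78%) and 1 fell (12.1%). At 100 mM and 48 h, 62 rose (8.69%) and 0 fell (9.2%). Rose and fell mean an adjusted p under 0.05 in limma's moderated test on log2(signal + 16), fitted across all tested probe sets. The median log2 difference of the members was 0.15 and 0.17 at 25 and 100 mM and 24 h, and 0.21 and 0.24 at 48 h. Over all tested genes the medians were -0.03, -0.03, -0.03 and -0.06. Over the 768 tested genes with a mean log2 signal of 14 or more they were 0.07, 0.08, 0.07 and 0.11. The called increases lay between 0.14 and 0.50, so no member reached a log2 difference of 1 over vehicle. All 5 DINP cultures lay above all 5 vehicle cultures for 21 members at 25 mM and 24 h (all tested genes, 6.39%) and 30 at 100 mM and 24 h (6.57%). At 48 h this held for 41 members at 25 mM (6.27%) and 56 at 100 mM (6.51%). In RNA of whole cultures, fewer cells of a type and less RNA per cell cannot be told apart.

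**Figure D1:**
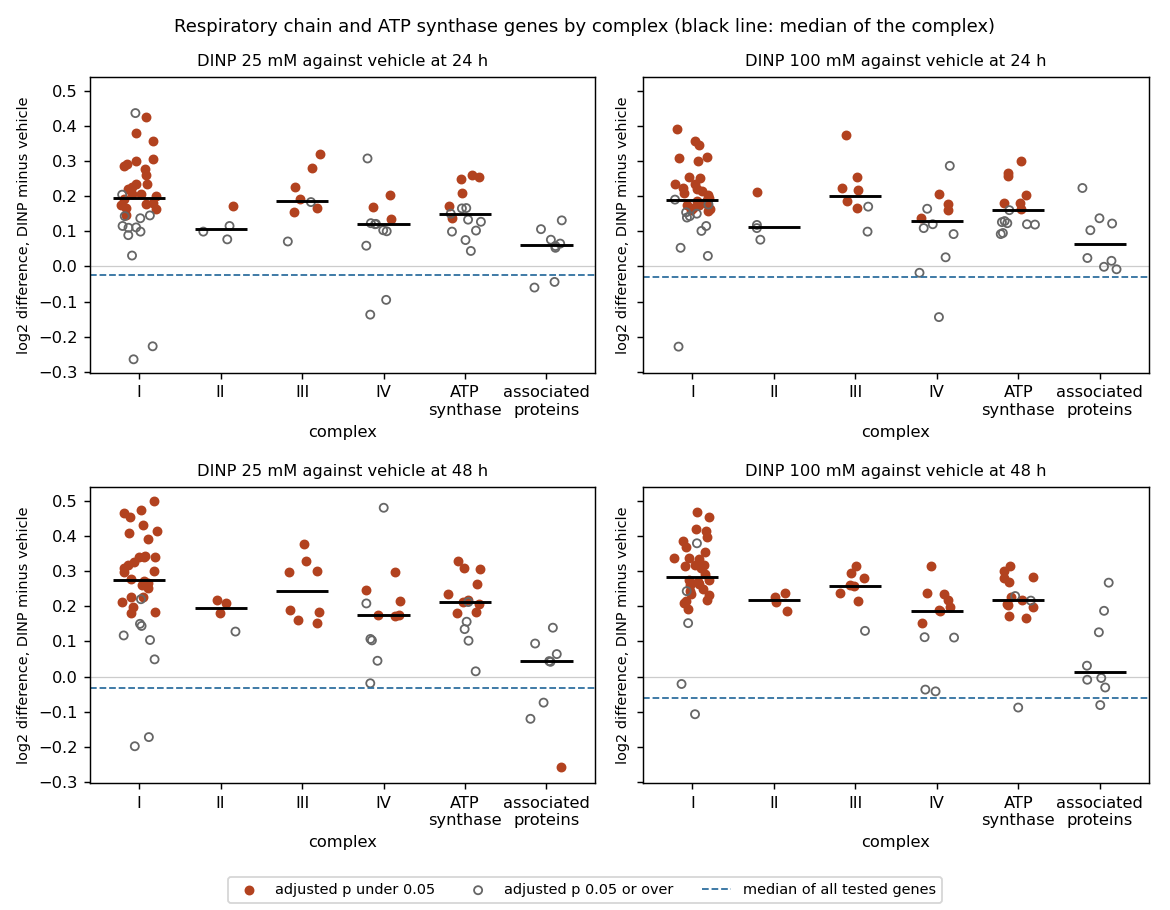
Each point is 1 gene, with its log2 difference of DINP minus vehicle on the y axis and its complex on the x axis, in the 4 comparisons with vehicle. Filled points passed the test, black lines are the medians of a complex and the dashed line is the median of all tested genes; with the deposited scaling the medians of complexes I to IV and of the ATP synthase lie above 0 in each panel (the median of all members flips to below 0 at 48 h when arrays are centred on poly-A spike controls), and the associated proteins lie lower.

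With the deposited scaling, the genes that rose in all 4 comparisons numbered 32, of which 20 belong to complex I, 1 to complex II, 5 to complex III, 2 to complex IV and 4 to the ATP synthase. The share of all tested genes that did so was not counted, and the doses of a time share their vehicle cultures. The 20 of complex I include Ndufa4, assigned by its symbol. At 25 mM and 24 h, leaving out 1 of the 10 compared cultures lost the call of Ndufb3 in 8 cases and of Uqcrh in 7. At 100 mM and 24 h Ndufb11 lost its call in 7. Ndufs7 and Cyc1 kept theirs in every such fit. In each complex, the gene of these 32 with the largest mean difference, among those with a promoter in the RefSeq table (build GRCr8), is shown here by its promoter. The sequences run from 250 bases before to 50 bases after the annotated start, on the strand of the gene. Capitals mark matches, on either strand, to any of 5 motifs of factors known to bind genes of mitochondrial energy metabolism: CGCANGCG (the core of nuclear respiratory factor 1, NRF1), CCGGAAGT (an ETS site, bound by GABP), AAGATGGCG (YY1), TCAAGGTCA (the half-site of ESRRA) and GTCANAGGT (the core of the DR1 element bound by PPAR alpha with RXR).
Ndufs7 (complex I, chr7:10110449-10110748, minus strand): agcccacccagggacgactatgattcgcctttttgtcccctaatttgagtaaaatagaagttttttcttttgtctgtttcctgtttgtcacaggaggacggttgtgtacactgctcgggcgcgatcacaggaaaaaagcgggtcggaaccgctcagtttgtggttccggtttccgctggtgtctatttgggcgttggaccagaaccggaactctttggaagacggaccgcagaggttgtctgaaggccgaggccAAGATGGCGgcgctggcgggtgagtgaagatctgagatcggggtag
Sdhb (complex II, chr5:158547684-158547983, plus strand): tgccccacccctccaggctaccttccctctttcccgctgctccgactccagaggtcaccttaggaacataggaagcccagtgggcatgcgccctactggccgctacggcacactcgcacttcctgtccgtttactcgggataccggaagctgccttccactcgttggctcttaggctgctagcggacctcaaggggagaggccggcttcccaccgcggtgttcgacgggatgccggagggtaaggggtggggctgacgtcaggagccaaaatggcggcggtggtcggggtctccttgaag
Uqcrc1 (complex III, chr8:118467973-118468272, plus strand): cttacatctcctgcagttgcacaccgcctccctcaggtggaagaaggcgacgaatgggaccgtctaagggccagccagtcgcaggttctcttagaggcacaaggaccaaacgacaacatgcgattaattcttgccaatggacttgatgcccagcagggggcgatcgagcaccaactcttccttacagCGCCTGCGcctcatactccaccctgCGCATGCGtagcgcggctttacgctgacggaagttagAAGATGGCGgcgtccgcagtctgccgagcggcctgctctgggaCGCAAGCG
Cox5b (complex IV, chr9:46417587-46417886, plus strand): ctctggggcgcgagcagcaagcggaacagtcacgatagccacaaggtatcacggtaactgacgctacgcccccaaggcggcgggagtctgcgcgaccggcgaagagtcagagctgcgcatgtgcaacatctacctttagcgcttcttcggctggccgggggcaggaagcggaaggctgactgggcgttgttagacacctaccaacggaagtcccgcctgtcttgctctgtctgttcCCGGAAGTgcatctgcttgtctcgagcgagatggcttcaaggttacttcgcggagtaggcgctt
Atp5po (ATP synthase, chr11:44657434-44657733, minus strand): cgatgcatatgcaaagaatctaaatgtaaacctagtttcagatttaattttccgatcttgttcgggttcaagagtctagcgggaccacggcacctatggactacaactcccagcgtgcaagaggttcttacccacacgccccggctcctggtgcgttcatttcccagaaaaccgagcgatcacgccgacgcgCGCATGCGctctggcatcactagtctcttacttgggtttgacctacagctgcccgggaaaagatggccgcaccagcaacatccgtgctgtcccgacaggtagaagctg

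The Ndufs7 promoter holds the YY1 letters just after the start. The Uqcrc1 promoter holds them across the start, and the NRF1 core at 3 places. The Cox5b promoter holds the ETS letters just before the start and the Atp5po promoter holds the NRF1 core once, while the Sdhb window holds none of the 5. Promoters were found for 78 of the 87 genes. The NRF1 core was in 25 of the 78 (32.1%), against 2261 of all 27457 promoters of that length (8.23%). The YY1 letters were in 11 (14.1%), against 531 of all (1.93%), and the ETS letters in 8 (10.3%), against 1102 (4.01%). The ESRRA half-site was in 2 (2.56%), against 113 (0.412%), and the DR1 core in 0, against 310 (1.13%). Among the 29 promoters of genes that rose in all 4 comparisons, 9 held the NRF1 core (31.0%), 4 the ETS letters (13.8%) and 3 the YY1 letters (10.3%). The median G+C content was 56.0% in the members' promoters, against 52.3% in all, and its part in the motif shares was not tested. The 27457 promoters were taken whether or not their genes were bright enough to be tested here. The NRF1 core can match both strands at one place, as in Atp5po, and each promoter counts once. Matches of different motifs do not overlap in the 5 windows printed. A match is a run of letters, not a shown site.

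Complex I, the NADH dehydrogenase, held the most members and the largest called difference in each of the 4 comparisons with vehicle. At 24 h, 23 of its 36 genes rose at 25 mM and 25 at 100 mM, and at 48 h 28 and 31 rose. The median difference was 0.20, 0.19, 0.28 and 0.28 in that order. Ndufs7, a core subunit that carries an iron-sulphur cluster close to ubiquinone, had signals, given here in units of 1000, of 20.9, 24.0, 22.8, 25.1 and 19.4 at 25 mM and 21.1, 22.02, 23.2, 23.5 and 22.9 at 100 mM in the 24 h DINP cultures. The 24 h vehicle cultures had 16.7, 16.5, 18.3, 17.6 and 16.96. Every DINP culture was above every vehicle culture, and the log2 difference was 0.38 ± 0.06 (adjusted p = 5.83e-05) at 25 mM and 0.39 ± 0.06 (adjusted p = 4.13e-05) at 100 mM, with limma's standard error. At 48 h its signal was 27.8, 25.4, 29.4, 25.8 and 24.1 at 25 mM and 27.6, 27.2, 24.1, 27.3 and 22.8 at 100 mM, and 20.1, 19.5, 18.1, 18.4 and 20.5 in vehicle cultures. The groups again did not overlap, with differences of 0.45 ± 0.06 (adjusted p = 2.47e-06) and 0.41 ± 0.06 (adjusted p = 1.45e-05). A rise of this size is 37% at 25 mM and 48 h.

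The accessory subunit Ndufc1 was measured at 41.2, 36.5, 37.7, 42.1 and 43.1 at 25 mM and 39.8, 41.6, 38.3, 39.5 and 39.4 at 100 mM in 48 h DINP cultures. The 48 h vehicle cultures had 30.1, 28.6, 28.3, 28.8 and 29.2. All 10 DINP values lay above the 5 vehicle values, and the difference was 0.47 ± 0.06 (adjusted p = 1.44e-07) at 25 mM and 0.45 ± 0.06 (adjusted p = 3.01e-07) at 100 mM. At 24 h it was 0.31 ± 0.06 (adjusted p = 0.000181) and 0.35 ± 0.06 (adjusted p = 3.68e-05). Ndufb8, whose protein is often used as a blot marker of assembled complex I, was higher at 25 mM and 24 h by 0.42 ± 0.12 (adjusted p = 0.0137). At 48 h the differences of Ndufb8 were 0.50 ± 0.12 (adjusted p = 0.00258) at 25 mM and 0.47 ± 0.12 (adjusted p = 0.00587) at 100 mM, while at 100 mM and 24 h its value was 0.19 ± 0.12 (adjusted p = 0.346). Ndufa3, a small membrane subunit, rose by 0.29 ± 0.05 and 0.30 ± 0.05 at 24 h and by 0.42 ± 0.05 and 0.42 ± 0.05 at 48 h. Ndufab1, the acyl carrier protein of mitochondria that also sits in complex I, rose by 0.36 ± 0.07 and 0.31 ± 0.07 at 24 h and by 0.33 ± 0.07 and 0.32 ± 0.07 at 48 h.

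Ndufs8 and Ndufv1 are core subunits of the peripheral arm, in which electrons enter. Ndufs8, an iron-sulphur subunit, rose by 0.20 ± 0.06 and 0.21 ± 0.06 at 24 h, and by 0.43 ± 0.06 and 0.40 ± 0.06 at 48 h. Ndufv1, which binds NADH through its flavin, had 0.14 ± 0.06 (adjusted p = 0.157) at 25 mM and 0.10 ± 0.06 (adjusted p = 0.333) at 100 mM at 24 h, which did not pass. At 48 h it rose by 0.34 ± 0.06 (adjusted p = 0.000122) and 0.27 ± 0.06 (adjusted p = 0.00243). Ndufv3, an accessory subunit of the same module, rose by 0.23 ± 0.06 and 0.25 ± 0.06 at 24 h and by 0.47 ± 0.06 and 0.39 ± 0.06 at 48 h. Its second tested probe set gave 0.18, 0.24, 0.29 and 0.20, of which the value at 25 mM and 48 h passed (adjusted p = 0.0205). Ndufs3, another core subunit, rose by 0.29 ± 0.05 and 0.31 ± 0.05 at 24 h and by 0.30 ± 0.05 and 0.26 ± 0.05 at 48 h. Ndufa4, listed here by its symbol but now known as a subunit of complex IV, rose by 0.22 ± 0.06 and 0.22 ± 0.06 at 24 h and by 0.26 ± 0.06 and 0.32 ± 0.06 at 48 h. The other 12 complex I genes that rose in all 4 comparisons were Ndufa2, Ndufa7, Ndufa8, Ndufa11, Ndufa12, Ndufb3, Ndufb6, Ndufb9, Ndufb10, Ndufb11, Ndufc2 and Ndufv2, by between 0.15 (Ndufb3 at 25 mM and 24 h) and 0.41 (Ndufb10 at 25 mM and 48 h). A second, dimmer probe set of Ndufa7 gave 0.18, 0.18, 0.20 and 0.31, and passed only at 100 mM and 48 h (adjusted p = 0.021).

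In complex I, 5 genes passed in none of the 4 comparisons: Ndufs1, Ndufs4, Ndufa5, Ndufb4 and Ndufa4l2. Ndufs1, the largest core subunit, had 5.97, 5.20, 6.39, 6.61 and 6.02 at 25 mM and 6.65, 6.65, 5.49, 6.83 and 8.06 at 100 mM in 48 h DINP cultures. The 48 h vehicle cultures had 7.39, 6.99, 6.77, 6.49 and 6.33. The groups overlapped, and the difference was -0.17 ± 0.08 (adjusted p = 0.126) at 25 mM and -0.02 ± 0.08 (adjusted p = 0.903) at 100 mM, with 95% intervals of -0.33 to -0.02 and -0.18 to 0.13. Ndufs4, an accessory subunit of the peripheral arm, had -0.23 ± 0.13 and 0.03 ± 0.13 at 24 h and 0.05 ± 0.13 and 0.24 ± 0.13 at 48 h. Ndufa5 had a larger error than most members, with 0.44 ± 0.18 (adjusted p = 0.108) at 25 mM and 24 h and 0.38 ± 0.18 (adjusted p = 0.164) at 100 mM and 48 h. Ndufa4l2, a relative of Ndufa4 known to be induced in hypoxia, passed in no comparison with vehicle, and its values lay between -0.26 ± 0.17 (adjusted p = 0.372) at 25 mM and 24 h and -0.11 ± 0.17 (adjusted p = 0.749) at 100 mM and 48 h.

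**Figure D2:**
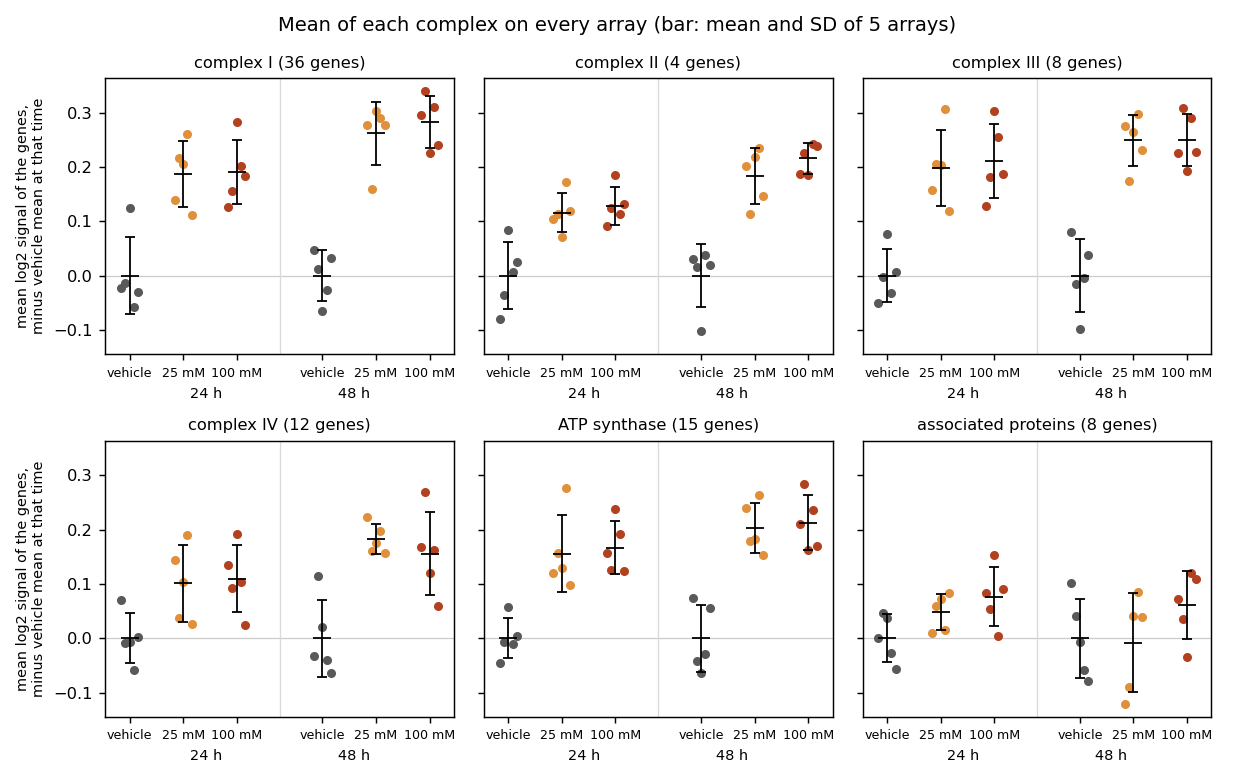
Each point is 1 array, with the mean log2 signal over the tested genes of a complex minus the mean of the vehicle arrays of that time on the y axis, and the groups in order of dose at 24 and 48 h on the x axis; bars give mean and SD of 5 arrays. With the deposited scaling the DINP arrays of complex III and of the ATP synthase lie above all vehicle arrays at both times (centring on poly-A spike controls flips the median of all members to below 0 at 48 h), while in complex I the vehicle 24 h replicate 3 lies among the DINP arrays.

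Complex II, succinate dehydrogenase, is also an enzyme of the citric acid cycle and all of its 4 subunits are nuclear. Sdhb, its iron-sulphur subunit, had 33.2, 34.3, 33.7, 36.4 and 33.3 at 25 mM and 35.1, 34.6, 37.4, 34.4 and 34.2 at 100 mM in 24 h DINP cultures. The 24 h vehicle cultures had 29.03, 31.2, 31.9, 28.9 and 30.5. No DINP value was as low as a vehicle value, and the difference was 0.17 ± 0.04 (adjusted p = 0.0053) at 25 mM and 0.21 ± 0.04 (adjusted p = 0.000701) at 100 mM. At 48 h Sdhb had 38.3, 33.9, 37.7, 36.9 and 35.8 at 25 mM and 36.8, 37.6, 34.7, 38.5 and 37.1 at 100 mM, and 33.6, 31.6, 29.6, 31.2 and 31.95 in vehicle cultures. The 48 h groups did not overlap either, with 0.21 ± 0.04 (adjusted p = 0.000612) and 0.23 ± 0.04 (adjusted p = 0.000285). The membrane anchors Sdhc and Sdhd passed at 48 h, Sdhc by 0.22 ± 0.05 and 0.24 ± 0.05 and Sdhd by 0.18 ± 0.05 and 0.21 ± 0.05. At 24 h they had 0.10 ± 0.05 and 0.11 ± 0.05 for Sdhc and 0.12 ± 0.05 and 0.12 ± 0.05 for Sdhd. A second probe set of Sdhd gave 0.11, 0.09, 0.19 and 0.27, and passed only at 100 mM and 48 h (adjusted p = 0.0176). Sdha, the flavoprotein that oxidises succinate, passed at 100 mM and 48 h with 0.19 ± 0.06 (adjusted p = 0.0189), and had 0.08 ± 0.06, 0.08 ± 0.06 and 0.13 ± 0.06 in the others.

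Complex III, which hands electrons from ubiquinol to cytochrome c, had 6 of its 8 genes higher at each dose at 24 h, and 8 at 25 mM and 7 at 100 mM at 48 h. Cyc1, the cytochrome c1 subunit, had 23.99, 25.3, 24.3, 27.4 and 24.7 at 25 mM and 24.01, 25.1, 28.1, 28.2 and 25.2 at 100 mM in 24 h DINP cultures. The 24 h vehicle cultures had 19.9, 19.7, 19.96, 20.1 and 20.9. The lowest DINP culture was well above the highest vehicle culture, and the difference was 0.32 ± 0.06 (adjusted p = 0.000142) at 25 mM and 0.37 ± 0.06 (adjusted p = 1.81e-05) at 100 mM. At 48 h Cyc1 had 29.9, 27.1, 28.2, 28.6 and 26.4 at 25 mM and 26.97, 27.3, 25.6, 28.5 and 27.1 at 100 mM, and 24.9, 21.3, 19.1, 22.2 and 24.5 in vehicle cultures. The groups stayed apart, with differences of 0.33 ± 0.06 (adjusted p = 8.14e-05) and 0.28 ± 0.06 (adjusted p = 0.000758). Uqcrc1, a core protein of the complex, rose by 0.28 ± 0.05 and 0.25 ± 0.05 at 24 h and by 0.30 ± 0.05 and 0.22 ± 0.05 at 48 h. Its partner Uqcrc2 had 0.07 ± 0.04 (adjusted p = 0.345) and 0.10 ± 0.04 (adjusted p = 0.157) at 24 h and rose by 0.16 ± 0.04 (adjusted p = 0.00912) and 0.26 ± 0.04 (adjusted p = 6.70e-05) at 48 h. A second, dimmer probe set of Uqcrc2 passed in none of the 4 and lay between -0.06 and 0.07. Uqcrfs1, the Rieske iron-sulphur protein, rose by 0.19 ± 0.05 and 0.22 ± 0.05 at 24 h and by 0.18 ± 0.05 and 0.26 ± 0.05 at 48 h. The small subunits Uqcrh and Uqcrq rose in all 4 comparisons, and Uqcr11 in the 3 other than 100 mM and 48 h. Uqcr10 passed at 48 h, with 0.38 ± 0.08 and 0.32 ± 0.08.

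Complex IV, cytochrome c oxidase, had 3 of its 12 tested genes higher at 25 mM and 4 at 100 mM at 24 h, and 6 and 8 at 48 h. Its median difference was 0.12, 0.13, 0.18 and 0.19 in that order. Cox5b, a nuclear subunit on the matrix side, had 51.4, 50.3, 50.4, 56.8 and 47.02 at 25 mM and 47.8, 49.6, 55.8, 49.7 and 48.3 at 100 mM in 24 h DINP cultures. The 24 h vehicle cultures had 44.99, 43.7, 43.99, 42.9 and 46.4. All DINP values were above all vehicle values, with 0.20 ± 0.05 (adjusted p = 0.0081) and 0.18 ± 0.05 (adjusted p = 0.0243). At 48 h Cox5b rose by 0.21 ± 0.05 (adjusted p = 0.00403) and 0.22 ± 0.05 (adjusted p = 0.00398), and the lowest DINP culture of each dose lay below the highest vehicle culture. Cox8a, the smallest subunit of the liver enzyme, also rose in all 4, by 0.14 ± 0.04 and 0.14 ± 0.04 at 24 h and 0.18 ± 0.04 and 0.19 ± 0.04 at 48 h. Cox7b rose at 100 mM and 24 h by 0.21 ± 0.05 (adjusted p = 0.00224) and at 48 h by 0.30 ± 0.05 (adjusted p = 1.33e-05) and 0.31 ± 0.05 (adjusted p = 6.61e-06). Cox6b1, on the outer side of the complex, rose at 100 mM and 24 h by 0.16 ± 0.05 (adjusted p = 0.0248) and at 48 h by 0.25 ± 0.05 (adjusted p = 0.000307) and 0.23 ± 0.05 (adjusted p = 0.000694). Cox4i1, the common form of subunit 4, passed at 100 mM and 48 h with 0.15 ± 0.05 (adjusted p = 0.0449), and had 0.12 ± 0.05, 0.09 ± 0.05 and 0.11 ± 0.05 in the others. Leaving out 1 of the 10 compared cultures lost the call of Cox4i1 in 8 cases. Cox6a1, the liver form of subunit 6a, rose by 0.17 ± 0.06 (adjusted p = 0.0429) at 25 mM and 24 h and by 0.17 ± 0.06 (adjusted p = 0.0303) and 0.20 ± 0.06 (adjusted p = 0.0149) at 48 h, and had 0.16 ± 0.06 (adjusted p = 0.0526) at 100 mM and 24 h. Its call was lost in 7 of 10 such fits at 25 mM and 24 h, in 5 at 25 mM and 48 h and in 1 at 100 mM and 48 h.

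The complex IV genes that passed nowhere were Cox4i2, Cox5a, Cox6c-ps1 and Cox7a1. Cox4i2 and Cox7a1 are forms used mainly in lung and in muscle, and Cox6c-ps1 is a pseudogene symbol. Cox4i2 was the dimmest tested member and its values were -0.14 ± 0.31 and -0.14 ± 0.31 at 24 h and 0.48 ± 0.31 and 0.11 ± 0.31 at 48 h. Cox5a, the partner of Cox5b on the matrix side, had 3.87, 3.46, 3.13, 3.35 and 3.20 at 25 mM and 2.86, 3.18, 2.68, 2.91 and 2.70 at 100 mM in 48 h DINP cultures, and 3.02, 3.52, 3.22, 2.30 and 2.77 in vehicle cultures. The groups overlapped and the differences were 0.21 ± 0.09 (adjusted p = 0.109) and -0.04 ± 0.09 (adjusted p = 0.84). A second Cox5a probe set carries several symbols and was left out.

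The subunits of complex IV that mitochondrial DNA encodes were on the array for Cox1 and Cox2, outside the rule. COX1 had 144, 174, 142, 149 and 129 at 100 mM and 48 h, against 132, 131, 121, 145 and 152 in the vehicle cultures of that time. The groups overlapped. Its differences from vehicle were 0.07, 0.07, 0.08 and 0.11 with a standard error of 0.07 in the 4 comparisons, and those of COX2 were 0.03, 0.03, 0.04 and 0.10 with 0.04. Neither passed in any of them (lowest adjusted p = 0.115).

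The ATP synthase had 6 of 15 genes higher at 25 mM and 7 at 100 mM at 24 h, and 10 and 12 at 48 h. Atp5po, the stalk subunit known as OSCP that joins the catalytic head to the stator, had 42.03, 38.8, 42.9, 40.5 and 41.7 at 25 mM and 42.4, 40.8, 37.9, 40.4 and 40.4 at 100 mM in 48 h DINP cultures. The 48 h vehicle cultures had 37.04, 31.4, 31.1, 30.4 and 34.4. Every DINP value exceeded every vehicle value, and the difference was 0.33 ± 0.05 (adjusted p = 2.39e-05) at 25 mM and 0.30 ± 0.05 (adjusted p = 0.00011) at 100 mM. At 24 h it was 0.25 ± 0.05 (adjusted p = 0.00118) and 0.30 ± 0.05 (adjusted p = 0.000149), again without overlap. Atp5f1c (gamma), Atp5f1d (delta) and Atp5f1e (epsilon) encode the central stalk of the catalytic head, and each rose in all 4 comparisons. For Atp5f1d the differences were 0.21 ± 0.06 and 0.27 ± 0.06 at 24 h and 0.31 ± 0.06 and 0.31 ± 0.06 at 48 h. The alpha and beta subunits of the head, Atp5f1a and Atp5f1b, passed at 48 h. Atp5f1a had 0.15 ± 0.06 (adjusted p = 0.0831) and 0.13 ± 0.06 (adjusted p = 0.152) at 24 h and 0.22 ± 0.06 (adjusted p = 0.00622) and 0.23 ± 0.06 (adjusted p = 0.00595) at 48 h. Atp5f1b had 0.17 ± 0.06 and 0.13 ± 0.06 at 24 h and 0.21 ± 0.06 and 0.20 ± 0.06 at 48 h. Atp5me and Atp5pb, parts of the membrane sector and the stator, passed in no comparison, with -0.09 ± 0.15 and 0.23 ± 0.08 at 100 mM and 48 h.

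**Figure D3:**
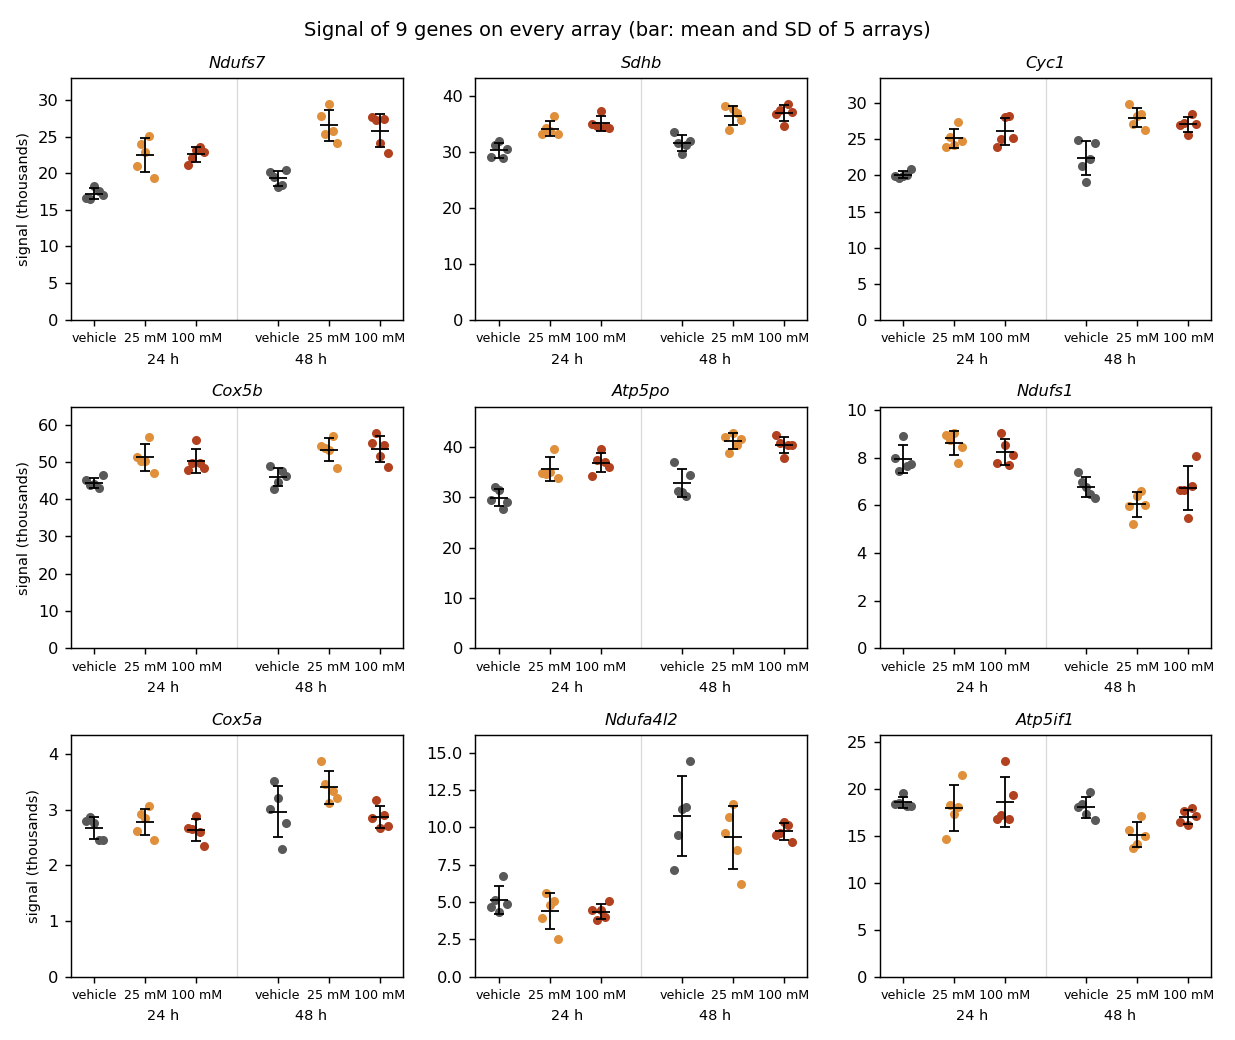
Each point is the signal of 1 array in units of 1000 (y axis, from 0) for 9 genes, with the groups in order of dose at 24 and 48 h on the x axis; bars give mean and SD of 5 arrays. With the deposited scaling Ndufs7, Sdhb, Cyc1, Cox5b and Atp5po lie higher in DINP cultures (centred on poly-A spike controls, Sdhb and Cox5b turn to below vehicle at 48 h), whereas Ndufs1, Cox5a, Ndufa4l2 and Atp5if1 overlap between DINP and vehicle.

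Of the 8 associated proteins, 0 rose in any comparison with vehicle in limma, where 1, 1, 1 and 2 had an unadjusted p under 0.05 (all 10604 tested genes, 3016, 2913, 3515 and 3303). Their median difference was 0.06, 0.06, 0.04 and 0.01 in the order above. Atp5if1, which blocks ATP hydrolysis by the synthase, had 15.6, 13.7, 14.2, 17.1 and 14.98 at 25 mM and 48 h, against 18.02, 18.4, 17.3, 19.7 and 16.7 in vehicle cultures. The groups overlapped at one culture, and the difference of -0.26 ± 0.08 (adjusted p = 0.0206) was the single decrease among the members. Its 3 tested probe sets did not move alike in that comparison. The others gave -0.05 (adjusted p = 0.832) and 0.74 (adjusted p = 0.0415), so no direction is given for the gene. The probe set with 0.74 carries the suffix x, by which the manufacturer marks possible cross-hybridisation, and it is the dimmest of the 3. At 100 mM and 48 h the value was -0.08 ± 0.08 (adjusted p = 0.561). The assembly factors Ndufaf1 to Ndufaf8 that were measured lay between -0.12 (Ndufaf5 at 25 mM and 48 h) and 0.27 (Ndufaf8 at 100 mM and 48 h). Dimmer members had both larger errors and smaller differences. The 22 genes with a mean log2 signal under 14 had a median standard error of 0.09, against 0.05 for the 61 at or above it. Their median differences were 0.08 and 0.10 at 25 and 100 mM and 24 h and 0.11 and 0.15 at 48 h, against 0.17, 0.18, 0.22 and 0.24 for the 61. Of the 22, 7 rose at 100 mM and 48 h, against 55 of the 61. Of the 768 genes on the array at or above that brightness, the 61 included, 26.2% and 27.2% rose at 25 and 100 mM and 24 h, and 33.6% and 36.8% at 48 h. Of the 768, 10%, 7.68%, 13.9% and 9.51% fell, and their median differences were 0.07, 0.08, 0.07 and 0.11. The 61 bright members rose in 57.4%, 63.9%, 80.3% and 90.2% of cases in the same order.

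How far these differences rest on the scaling was measured on the control probe sets. The poly-A spikes are bacterial transcripts added before labelling, and their mean log2 signal was 0.03 and 0.16 higher at 25 and 100 mM and 24 h and 0.31 and 0.25 higher at 48 h in DINP than in vehicle cultures. In an exact permutation test over 5 against 5 arrays, adjusted over 24 control comparisons, the 48 h values had adjusted p = 0.0318 and 0.0866. The hybridisation controls, added later, differed by -0.03, -0.07, 0.03 and 0.06. Centring the arrays on the poly-A spikes moved the median of all tested genes by -0.03, -0.16, -0.31 and -0.25. The members' median then was 0.12 and 0.004 at 24 h and -0.10 and -0.01 at 48 h, with 1, 0, 0 and 0 genes higher and 6 lower at 25 mM and 48 h, so the direction flips there. Any centring that subtracts 1 value per array keeps the distance of the members' median from that of all tested genes by construction. Under centring on the hybridisation controls, on the array medians, or under quantile normalisation, the members' median stayed above 0, between 0.09 and 0.32. Of these, only quantile normalisation could change the distance from all tested genes. There the members' median was 0.09, 0.09, 0.13 and 0.14, and that of all tested genes 0.009, 0.01, -0.007 and -0.013. The members' median thus stayed above in each of the 4 comparisons, but by less than with the deposited scaling. With the deposited scaling the members' median was 0.15, 0.17, 0.21 and 0.24, against -0.025, -0.029, -0.032 and -0.062 for all tested genes. The single 5S rRNA control probe set was higher in DINP cultures by 1.03 and 1.03 at 24 h and 1.11 and 0.89 at 48 h (adjusted p = 0.0318 each, exact permutation test), and its part in the results was not tested.

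**Figure D4:**
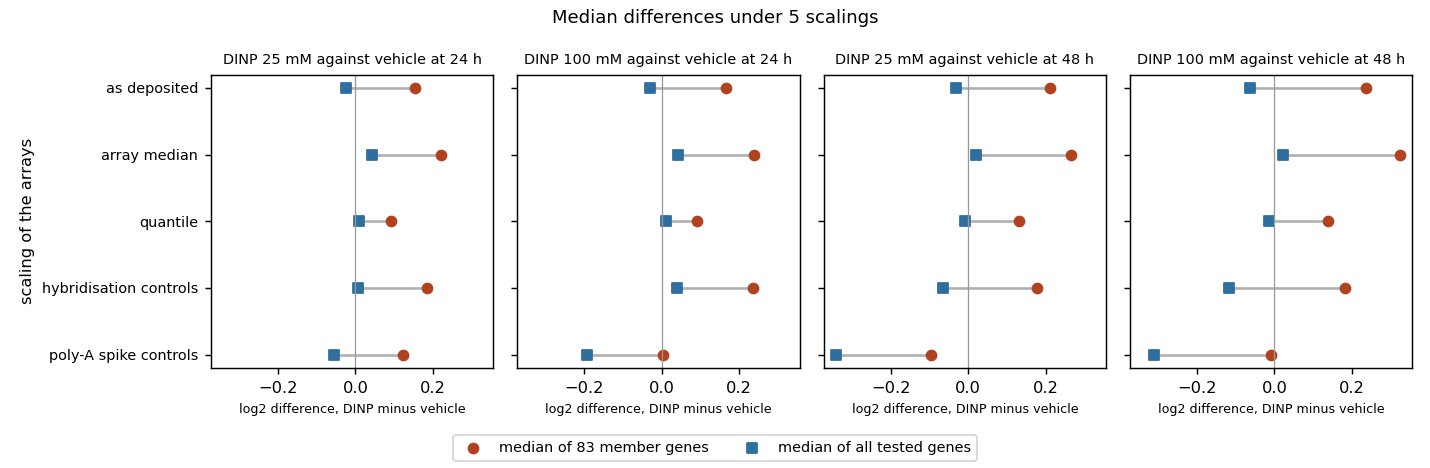
Circles are the median log2 difference (x axis) of the 83 member genes and squares that of all 10604 tested genes, for 5 ways of scaling the arrays (y axis), in the 4 comparisons of DINP with vehicle. The circles lie to the right of the squares in each panel. Centring keeps this distance by construction, and only quantile normalisation could change it, where it was smaller in each panel. The circles lie to the left of 0 at 48 h when arrays are centred on poly-A spike controls.

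Of the 39 genes that rose at 25 mM and 24 h, 38 also rose at 48 h, which is 97.4% of the first list and 69.1% of the second. The exception was Ndufb7. At 100 mM, 41 of 43 did so (95.3% and 66.1% of the 2 lists), with Atp5mpl and Uqcr11 as the exceptions. The comparisons at 24 and 48 h share no arrays, but they share one estimate of the spread of each gene. The share of all tested genes that rose at both times was not counted. The change of effect between 48 and 24 h itself passed for 0 members at 25 mM (all tested genes, 0.358%) and 0 at 100 mM (0.113%). An unadjusted p under 0.05 was held by 8 and 5 of the 83 members, and by 995 and 731 of all 10604 tested genes. The median change was 0.07 at each dose with the deposited scaling. At 25 and 100 mM it was 0 and -0.06 when arrays were centred on hybridisation controls, and -0.21 and -0.02 on poly-A spikes. Among the 8, the changes at 25 mM were positive for 7, such as Ndufv3 with 0.25 ± 0.08 (adjusted p = 0.305) and Ndufs8 with 0.23 ± 0.09 (adjusted p = 0.41), and negative for Ndufs1 with -0.29 ± 0.11 (adjusted p = 0.419).

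Between the doses, 0 members passed at 24 h (all tested genes, 0.00943%) and 0 at 48 h (0.00943%) in limma. An unadjusted p under 0.05 was held by 1 and 3 of the 83 members, and by 434 and 813 of all 10604 tested genes. The median of 100 mM minus 25 mM was 0.01 at 24 h and 0.02 at 48 h. For Ndufs7 the difference between the doses had a 95% interval of -0.12 to 0.14 at 24 h and -0.17 to 0.09 at 48 h. For Cyc1 it was -0.07 to 0.17 and -0.17 to 0.07, for Atp5po -0.06 to 0.16 and -0.14 to 0.08. These intervals do not show that the doses act alike. Cox5a had -0.24 ± 0.09 (adjusted p = 0.535) for 100 mM minus 25 mM at 48 h.

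In vehicle cultures alone, 4 members were higher at 48 h than at 24 h (all tested genes, 9.49%) and 5 were lower (7.92%), with the deposited scaling (centred on poly-A spikes, 1 was higher and 68 lower, and all tested genes shifted by -0.41). Age of the culture and length of exposure to DMSO cannot be told apart in this comparison. Ndufa4l2 had 7.14, 9.51, 11.2, 11.4 and 14.4 at 48 h, against 4.63, 5.13, 4.34, 6.73 and 4.87 at 24 h. The 48 h values were all higher, and the difference of 1.04 ± 0.17 (adjusted p = 7.42e-05) was larger than any member's difference between DINP and vehicle. Ndufs3 (0.22 ± 0.05), Uqcrc1 (0.20 ± 0.05) and Atp5f1e (0.18 ± 0.06) were also higher at 48 h. Ndufs4 (-0.40 ± 0.13), Atp5pf (-0.24 ± 0.07), Ndufs1 (-0.23 ± 0.08), Uqcrc2 (-0.21 ± 0.04) and Cox7c (-0.17 ± 0.06) were lower. Leaving out 1 of the 10 compared cultures lost the call of Ndufs1 and of Cox7c in 8 cases each, of Atp5f1e in 6 and of Ndufs4 in 5. Ndufa4l2, Ndufs3, Uqcrc1, Uqcrc2 and Atp5pf kept theirs in every such fit. With the deposited scaling the core proteins Uqcrc1 and Uqcrc2 of complex III thus differed in sign. Centred on poly-A spikes, Uqcrc1 was lower at 48 h too. The second Uqcrc2 probe set had -0.13 ± 0.07 (adjusted p = 0.262).

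Other genes of the pathway moved in both directions. Of all tested genes, 7.87%, 7.54%, 9.78% and 8.69% rose in the 4 comparisons, and 7.84%, 7.02%, 12.1% and 9.2% fell. Of 39 tested assembly factors outside the rule, 6 and 7 rose at 25 and 100 mM and 24 h and 9 and 10 at 48 h, with 1, 1, 3 and 1 lower and medians of 0.09, 0.11, 0.05 and 0.04. Their differences at 25 mM and 48 h ran from -1.096 to 0.561. Sdhaf1, an assembly factor of complex II, rose by 0.50 ± 0.08 and 0.47 ± 0.08 at 24 h and 0.56 ± 0.08 and 0.49 ± 0.08 at 48 h. Cox14, an assembly factor of complex IV, rose by 0.44 ± 0.08 and 0.49 ± 0.08 at 24 h and by 0.46 ± 0.08 and 0.48 ± 0.08 at 48 h, and Uqcc2 of complex III by 0.37 ± 0.07 at 25 mM and 48 h. Cox15, an enzyme that makes the haem of complex IV, was lower in all 4, with -0.32 ± 0.06 and -0.25 ± 0.06 at 24 h and -0.23 ± 0.06 and -0.18 ± 0.06 at 48 h. Of 19 tested genes that feed electrons to ubiquinone or make it, 8, 8, 9 and 7 rose and 3, 3, 2 and 2 fell, with medians of 0.21, 0.10, 0.18 and 0.12. Etfdh, which passes electrons from fatty acid oxidation to ubiquinone, rose by 0.48 ± 0.05 and 0.50 ± 0.05 at 24 h and 0.55 ± 0.05 and 0.60 ± 0.05 at 48 h, and Gpd2, the glycerol phosphate dehydrogenase of mitochondria, by 1.54 ± 0.11 and 1.17 ± 0.11 at 24 h and 1.34 ± 0.11 and 1.17 ± 0.11 at 48 h. Prodh, the proline dehydrogenase, had -0.61 ± 0.08 and Sqor, the sulphide oxidase, -0.27 ± 0.05 at 25 mM and 24 h, both lower.

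Among 17 regulators of mitochondrial biogenesis, 3, 2, 2 and 3 rose (all tested genes, 7.87%, 7.54%, 9.78% and 8.69%). Of the 17, 3, 3, 2 and 3 fell (all tested genes, 7.84%, 7.02%, 12.1% and 9.2%), and the medians lay within 0.03 of 0. Their differences at 25 mM and 24 h ran from -1.139 to 0.514. Tfam, which packages mitochondrial DNA and takes part in its transcription, rose by 0.28 ± 0.06 and 0.24 ± 0.06 at 24 h and by 0.23 ± 0.06 at 100 mM and 48 h. Ppargc1a, the coactivator known to drive respiratory chain genes, was lower in all 4, with -0.75 ± 0.13, -0.54 ± 0.13, -0.72 ± 0.13 and -0.69 ± 0.13. Of 8 tested carriers and porins, Ucp2, a carrier of the uncoupling protein family, rose by 1.97 ± 0.40 and 1.44 ± 0.40 at 24 h and by 1.34 ± 0.40 and 1.46 ± 0.40 at 48 h, and the ADP/ATP carrier Slc25a4 was lower at 25 mM and 48 h (-0.19 ± 0.06). Of 11 tested general mitochondrial proteins, 5, 5, 4 and 4 rose and 0 fell, among them citrate synthase (Cs, 0.33 ± 0.08 at 25 mM and 24 h and 0.41 ± 0.08 at 100 mM and 48 h). As a check of exposure, 8 of 8 tested PPAR alpha targets rose in each comparison, with medians of 2.16, 2.09, 1.75 and 1.76. These differences are several times those of the respiratory chain genes.

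The summed signal of 9 tested hepatocyte markers lay between 657000 and 782000 at 25 mM and between 680100 and 729300 at 100 mM in 24 h DINP cultures, and between 671800 and 800500 in vehicle cultures of that time, so these ranges overlapped. At 48 h it lay between 631700 and 738200 at 25 mM and between 671000 and 764800 at 100 mM, and between 628000 and 733000 in vehicle cultures. In the 4 comparisons 7.87%, 7.54%, 9.78% and 8.69% of all tested genes rose, and 7.84%, 7.02%, 12.1% and 9.2% fell. An unadjusted p under 0.05 was held by 3016, 2913, 3515 and 3303 of the 10604. Of 7 tested Kupffer cell markers, 1, 0, 2 and 2 rose and 0 fell. Of 6 stellate cell markers 0 rose, with 1 lower at 100 mM and 48 h, and of 4 sinusoidal endothelial markers 0 passed in limma, with 0, 0, 1 and 1 at an unadjusted p under 0.05. Hepatocyte markers rose in 0, 0, 2 and 0 cases of 9 and fell in 1, 1, 1 and 2. Of 2 tested cholangiocyte markers 1 fell at each dose at 48 h, and of 2 erythroid markers 1 rose at 100 mM and 24 h. For the single tested lymphocyte marker and the 2 of striated muscle, 0 passed in limma and 0 had an unadjusted p under 0.05. The part of these cell types in the results was not tested. The ratio of 3' to 5' probe sets, a sign of RNA integrity, differed by at most 0.05 on the log2 scale for beta-actin and for GAPDH, with adjusted p of 0.0761 or more. Leaving out 1 culture moved the 24 h counts most: 25 genes rose at 25 mM without its replicate 4. At 100 mM and 24 h, 26 rose without its replicate 3, and likewise 26 without vehicle 24 h replicate 4.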

How the data were processed

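RNA was measured on 30 Affymetrix rat arrays. The deposited table holds a linear intensity for every probe set on every array. The submitters' processing notes name MAS5, without a version or settings. The 2% trimmed mean of the deposited intensities lay between 1500.65 and 1500.76 on every array, so the arrays had been scaled to one mean. The number of arrays, 5 a group, limits the precision.

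From these, log2(signal + 16) was computed, 57 control probe sets were set aside, and probe sets at or above the 40th percentile of mean log2 signal were tested (18625, the dimmest at 7.956). Log2 differences are on this scale and understate changes of dim genes. Symbols came from the platform annotation, updated through the Entrez ID for 20758 probe sets, and each gene's value is that of its tested probe set with the highest mean. Of 31042 probe sets, 20826 had 1 symbol, 436 several and 9780 none.

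limma 3.58.1 in R 4.3.3 was fitted once to all 6 groups (24 residual degrees of freedom) with moderated variances that follow a trend in brightness, and p-values were adjusted by Benjamini-Hochberg over all tested probe sets in each comparison, with a threshold of 0.05. The fit was tested on simulated data. Errors beside log2 differences are moderated standard errors. Replicates were numbered in sample order, and the array numbers in the titles form 5 rounds of the 6 groups, used as a block in an alternative.

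The members and lists were chosen with earlier results of these data known. By rule the text takes, per complex, up to 3 called members with the largest difference in each comparison with vehicle and in vehicle over time, those called in all 4 comparisons with vehicle, those whose probe sets were called in opposite directions, and a preset list of core and tissue-specific subunits; of each other list, up to 3 called genes per comparison. Not every list gene so taken is described. Atp5me, Atp5pb, Cox6c-ps1, Ndufa5, Ndufb4, Ndufb7, Uqcr11, Cox7a2l and the Ndufaf genes were named after their values were seen. Alternatives changed the constant, the filter, the scaling, the groups fitted, the variance model, the choice of probe set and the arrays included. Scaling on control probe sets was added after seeing the data.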

Additional observations from a re-analysis of the deposited data

Results flagged for a closer look

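A culture that lay far from the other 4 of its group was found in 26 of 366 groups of 5 (7.1%), for the named members and the means of the complexes. Chance alone gives about 1 in 20. The values below are log2 signals of the culture, with the nearest other culture of its group after it. In the DINP 25 mM 24 h group this held for Atp5po in replicate 4 at 15.28 (next 15.1), Cox4i2 in replicate 2 at 6.95 (next 8.4), Cox6b1 in replicate 4 at 15.55 (next 15.37) and Ndufc1 in replicate 4 at 15.29 (next 15.09). In the DINP 100 mM 24 h group this held for Cox5b in replicate 3 at 15.77 (next 15.6), Ndufb8 in replicate 2 at 11.75 (next 12.14), Sdhb in replicate 3 at 15.19 (next 15.1) and Sdhd in replicate 1 at 15.02 (next 15.08). In the vehicle 24 h group this held for Atp5if1 in replicate 3 at 14.26 (next 14.18), Ndufab1 in replicate 3 at 14.14 (next 13.97), Ndufb3 in replicate 3 at 15.17 (next 15.03) and the mean of complex I in replicate 3 at 14.25 (next 14.12). In the DINP 25 mM 48 h group this held for Atp5mpl in replicate 5 at 13.91 (next 14.28), Atp5pf in replicate 4 at 14.57 (next 14.27), Ndufs3 in replicate 3 at 14.32 (next 14.18) and the mean of complex I in replicate 2 at 14.32 (next 14.44). In the DINP 100 mM 48 h group this held for Cox4i1 in replicate 2 at 16.4 (next 16.19), Ndufc2 in replicate 5 at 15.01 (next 15.15) and Ndufv2 in replicate 3 at 14.28 (next 14.4). In the vehicle 48 h group this held for Atp5f1c in replicate 1 at 15.71 (next 15.4), Cox6b1 in replicate 3 at 15.13 (next 15.29), Cox7b in replicate 2 at 15.87 (next 15.78), Ndufb8 in replicate 4 at 11.78 (next 12.12), Ndufv2 in replicate 1 at 14.33 (next 14.18), Ndufv3 in replicate 3 at 13.03 (next 13.23) and the mean of complex II in replicate 3 at 14.49 (next 14.61). Vehicle 24 h replicate 3 stood high in 4 of these cases, complex I among them, and without it 45 members rose at each dose at 24 h.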

How the results depend on the processing

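With the deposited scaling, 39, 43, 55 and 62 members rose against vehicle (25 and 100 mM at 24 h, then at 48 h). The constant, the stricter filter and array weights left these within 1.5 times, as did the block for rounds of array numbers (40, 43, 54 and 62). Median centring gave 59 at 25 mM and 24 h, quantile normalisation 21 and 22 at 24 h and 37 at 100 mM and 48 h, hybridisation-control centring 22 at 25 mM and 24 h and 33 and 24 at 48 h, and no variance trend 28 at 100 mM and 24 h. Poly-A spike centring gave 1, 0, 0 and 0. Both centrings on controls were added after seeing the data, and the cause was not tested. The single lower member at 25 mM and 48 h (Atp5if1) became 0 under median centring, hybridisation-control centring or the median over its probe sets, and 6 members were lower under poly-A spike centring.

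In vehicle over time, the 4 higher members became 1 under hybridisation-control or poly-A spike centring. The 5 lower became 2 with no filter, median centring, hybridisation-control centring or no variance trend, 3 with only the compared groups, and 68 with poly-A spike centring. Leaving out 1 culture in turn gave 25 to 45 and 26 to 45 higher members at 24 h, 49 to 55 and 55 to 65 at 48 h, 0 to 1 lower at 25 mM and 48 h, and 3 to 6 higher and 2 to 4 lower in vehicle over time.

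Of 173 named gene differences past the threshold, 173 kept their call with either other constant, 117 with quantile normalisation and 105 with hybridisation-control centring, and none changed sign outside poly-A spike centring, where 54 did and 111 others lost their call. The 54 took the following log2 differences there. At 100 mM and 24 h they were Cox6b1 -0.003, Cox8a -0.024 and Ndufv2 -0.005. At 25 mM and 48 h they were Atp5f1a -0.089, Atp5f1b -0.10, Atp5f1c -0.043, Atp5f1d -0.003, Atp5mpl -0.073, Atp5pf -0.12, Cox5b -0.094, Cox6a1 -0.14, Cox6b1 -0.063, Cox7b -0.012, Cox7c -0.13, Cox8a -0.13, Ndufa12 -0.082, Ndufa2 -0.11, Ndufa4 -0.048, Ndufa8 -0.029, Ndufb3 -0.13, Ndufb6 -0.037, Ndufb9 -0.082, Ndufc2 -0.043, Ndufs3 -0.007, Ndufv2 -0.12, Sdhb -0.1, Sdhc -0.091, Sdhd -0.13, Uqcrc1 -0.007, Uqcrc2 -0.15, Uqcrfs1 -0.12, Uqcrh -0.12 and Uqcrq -0.012. At 100 mM and 48 h they were Atp5f1a -0.023, Atp5f1b -0.049, Cox4i1 -0.095, Cox5b -0.029, Cox6a1 -0.051, Cox6b1 -0.014, Cox7c -0.01, Cox8a -0.06, Ndufa12 -0.015, Ndufb3 -0.013, Ndufb9 -0.004, Ndufv2 -0.039, Sdha -0.06, Sdhb -0.022, Sdhc -0.01, Sdhd -0.035, Uqcrc1 -0.031 and Uqcrh -0.009. In vehicle over time they were Atp5f1e -0.23, Ndufs3 -0.19 and Uqcrc1 -0.21. The labels carry no replicate numbers, and the array numbers in the titles form 5 rounds of the 6 groups, which the block above uses. Leaving out vehicle 24 h replicate 4 lost 23 of the 79 named calls that it enters, the most of any culture. The lower call of Atp5if1 was lost when replicate 2 or 3 of the 25 mM cultures at 48 h was left out, and when vehicle 48 h replicate 4 was. The median width of a member's 95% interval was 0.231 on the log2 scale, and the smallest increases past the threshold were 0.135 and 0.139 at 24 h and 0.153 at each dose at 48 h.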
